A study of Mus musculus with 9 samples.

Results

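App encodes the amyloid precursor protein, a membrane protein of neurons and glia. Its rows were taken by gene symbol from the authors' lists of Mbnl2 binding, from hippocampus of wild-type mice, and from their exon lists. App held 4 of 10407 called peaks, 21 of 557 crosslink mutation sites and 1 of 468 exon events, and it is 1 of 4800 genes with a called peak. All 4 peaks and all 21 sites lay in its 3' untranslated region (3'UTR). The gene was chosen because of these peaks and sites, so its tag counts, ranks and mutated shares are described here and not tested.

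Mbnl2 is a muscleblind-like protein that binds RNA through zinc fingers and acts on alternative splicing, mainly in the nucleus, while muscleblind proteins bound to 3'UTRs are known for roles in RNA localization and stability. App protein is cut by secretases, and the cuts of beta- and gamma-secretase release the amyloid beta peptide found in the plaques of Alzheimer's disease. Crosslinking and immunoprecipitation (CLIP) fixes a protein to the RNA it touches with UV light and sequences the short RNA pieces, called tags, that come down with it. Where the reverse transcriptase meets the crosslinked base it can leave a mutation, so recurrent mutations within tags are taken to mark bound bases.

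The series holds 3 RNA-seq libraries from hippocampi of Mbnl2 knockout mice, 3 RNA-seq libraries from wild-type hippocampi and 3 CLIP libraries from wild-type hippocampus. The knockout is homozygous for a deletion named ΔE2. All mice were female on a mixed background of C57BL/6 and 129 SvlmJ, at 2 to 3 months for RNA-seq and 3 months (11 to 12 weeks in the protocol) for CLIP. The series text gives the CLIP strain as BL6 and the tissue as brain, which differs from the sample labels. The CLIP protocol names 3 mice, without saying whether each library is 1 animal. No CLIP library of knockout tissue or input RNA was analysed here.

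The CLIP libraries held 159144, 209430 and 334857 unique tags in libraries 1, 2 and 3. Library 1 stood apart in mutations, with 26.3 deletions and 102 substitutions per 100 tags, against 9.47 and 38.1 in library 2 and 7.88 and 26.9 in library 3. Library 3 stood apart in read copies, since a median of 1 read lay behind each of its tags, against 26 in library 1 and 11 in library 2. Of 10 markers of hippocampal and other neurons, 7 had a peak, where 21.8% of RefSeq protein-coding genes had one, and Neurod1, Neurod2 and Neurod6 had none. The 7 markers together held 1732 to 2633 tags per 1000000 unique tags (CPM). Most of these were in Snap25, at 1797, 1566 and 1108 CPM in libraries 1, 2 and 3. The list mixes hippocampal with other neurons, so it does not tell hippocampus from other brain. Oligodendrocyte markers with a peak (4 of 6) held 1732 to 2733 CPM, astrocyte markers (5 of 6) 797 to 1118 and endothelial markers (4 of 5) 14.3 to 50.3. Mag, Mog, Gfap and Cldn5 had no peak. The only microglial marker with a peak (1 of 5), Tmem119, held 0 to 6.28 CPM. Choroid plexus markers with a peak (3 of 5) varied between 157, 1055 and 299 CPM in libraries 1, 2 and 3.

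The highest App peak was the highest in the whole list, with 359 tags over a single nucleotide at position 84955009 of chromosome 16 (build mm9, minus strand). It had 100 tags in library 1, 141 in library 2 and 118 in library 3. Scaled to library size these were 628, 673 and 352 CPM, or 551 ± 174 CPM (SD, n = 3). Libraries 1 and 2 lay close together and library 3 lay lowest. By tags within libraries 1, 2 and 3 the peak ranked 2, 2 and 1 among all peaks. Tags mix binding with transcript abundance, and in tissue a difference in the number of cells of a type cannot be told apart from a difference in RNA per cell.

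The other called peaks lay on both sides of this summit within the same 3'UTR. The second peak, of 106 tags at 84955441, was 432 nt towards the 5' end of the transcript and held 207, 153 and 122 CPM in libraries 1, 2 and 3. The third, of 70 tags at 84954739, was 270 nt towards the 3' end and held 94.3, 105 and 98.5 CPM. The fourth, of 52 tags at 84955526, was 517 nt towards the 5' end and held 81.7, 85.9 and 62.7 CPM. The 2 lowest peaks differed little between libraries (SD of 5.43 CPM around a mean of 99.3 and of 12.4 around 76.8, n = 3), while the summit had the widest spread. The summit exceeded the second peak 3.03, 4.41 and 2.88 times in libraries 1, 2 and 3, so its lead was present in each. The authors' deposited table gives 1 expected height for the gene, 13.6 tags, and the 4 peaks exceeded it 26.5, 7.82, 5.16 and 3.83 times.

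**Figure D1:**
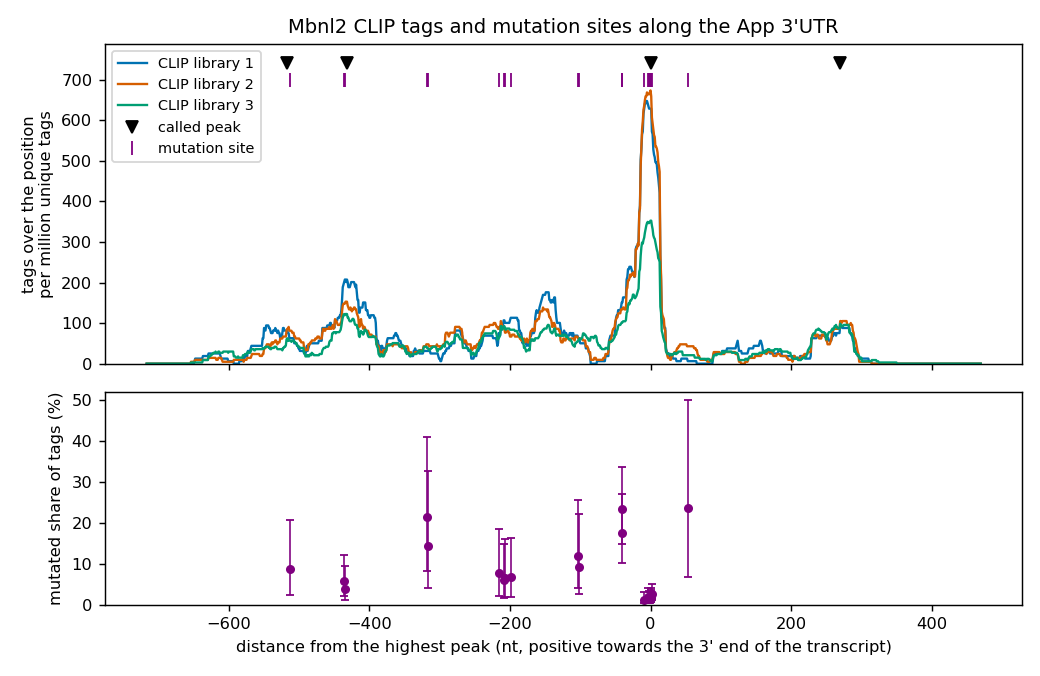
The upper panel plots the tags over each nucleotide per 1000000 unique tags, 1 line per CLIP library, against the distance from the highest App peak, with called peaks as triangles and mutation sites as ticks. The lower panel gives the mutated share of tags at each of the 21 sites with its 95% exact interval; the 7 sites at the summit have the lowest shares and the sites 40 and 41 nt to its left reach 17.4% and 23.3%.

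Tags filled more of the 3'UTR than the called peaks cover. Between the fourth and the third peak, a stretch of 788 nt, tag centres numbered 340, 426 and 529 in libraries 1, 2 and 3. Of the App tags counted over a span of 101830 nt, not the 3'UTR stretch alone, 35.9% ± 4.78 (SD, n = 3) overlapped a called peak. The highest App peak is 1 nt wide, so this share also depends on how narrowly peaks were drawn. It also leaves out tags of the third peak centred past the end of the span. It counts 151, 197 and 195 of the 161, 213 and 213 tags over App peaks in libraries 1, 2 and 3. Pooled depth had further local maxima of 56, 67 and 88 tags, at 274, 213 and 146 nt on the 5' side of the summit, each the highest point within 25 nt on either side. All 3 were above the fourth called peak in depth, and the called peak nearest to any of them was 146 nt away. The highest of them held 176, 134 and 95.6 CPM in libraries 1, 2 and 3. On the 3' side of the summit, pooled depth dropped to 4 tags before the third peak.

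The 3'UTR held most of the tags in the part of the gene counted here. Counted from the third peak to the far end of the App exon event, a span of 101830 nt, tag centres on the App strand numbered 405, 494 and 637, which is 2269 ± 331 CPM (SD, n = 3). The 3'UTR stretch took 84.0% of them in library 1 (95% exact interval 80.0 to 87.4%), 86.2% in library 2 (82.9 to 89.1%) and 83.0% in library 3 (79.9 to 85.9%). The 3 intervals overlapped. The span stops at the exon event and leaves out the 5' part of the gene. A further 120761 nt on the 5' side, up to the RefSeq gene length, held 17, 23 and 48 tags in libraries 1, 2 and 3. Because the stretch begins and ends on a called peak, part of the tags of those 2 peaks falls outside it, and widening it by 200 nt on each side gave 89.8%. Density was 1643 pooled tags per kb in the 3'UTR stretch, against 2.37 per kb in the 75083 nt between it and the exon event and 2.43 per kb in the interval of the event itself. The stretch was bounded by called peaks that also chose the gene, so a high density inside it was fixed in advance. These densities were not scaled to the amount of RNA present from each part, so a preference in binding was not tested. The opposite strand held 1 tag over the whole span, and no intronic peak of App was listed.

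Mutations were not most frequent per tag where tags were deepest. The 21 sites held 131 mutations, most of all genes, in a list where 0.858% of RefSeq protein-coding genes had a site and 21.8% had a called peak. They spread over 566 nt in 8 groups of neighbouring sites, and 11 of the 21 had no called peak within 20 nt. The largest group, 7 sites between 9 nt on the 5' side and 2 nt on the 3' side of the summit, held 32.8% of the mutations. Each of these 7 was mutated in few tags, from 4 of 337 (1.19%) to 9 of 332 (2.71%, 95% exact interval 1.25 to 5.08%), and the summit base itself in 7 of 359 (1.95%, 0.787 to 3.98%).

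A pair of adjacent bases on the 5' side of the summit had the highest numbers of mutations in the gene. At 84955050, 41 nt from the summit, 20 of 86 tags were mutated, a share of 23.3% (95% exact interval 14.8 to 33.6%). Its neighbour at 84955049 had 15 of 86 (17.4%, 10.1 to 27.1%). Both intervals lie above those of all 7 summit sites. Together the pair took 26.7% of the App mutations, although mutations at adjacent bases can come from the same tags and are then not independent. Tags over the pair came from all libraries, 24, 28 and 34 in libraries 1, 2 and 3. Of the 86 tags over each base, 0 also covered the summit, so the pair and the summit were read from different tags. Pooled depth stayed at 86 tags or more between the summit and the pair, which had no listed depth maximum of its own.

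The remaining 12 sites lay in smaller groups. Neighbouring bases 317 and 318 nt on the 5' side of the summit were mutated in 4 and 6 of 28 tags (14.3% and 21.4%; 95% exact interval of the higher 8.30 to 40.95%). A single site 53 nt on the 3' side had 4 of 17 tags (23.5%, 6.81 to 49.9%), with 1, 9 and 7 tags in libraries 1, 2 and 3. Sites 102 and 103 nt on the 5' side had 9.30% and 11.9%, 4 sites between 198 and 215 nt had 6.06 to 7.69%, and those beside the second peak and the fourth had 3.85 to 8.70%. The listing needed at least 4 mutations, and 10 of the 21 sites had exactly 4, so their share is the lowest that their depth allowed. For the site with 17 tags that floor is 23.5%, whereas at 86 tags it is 4.65%, and both bases of the pair lay well above it.

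**Figure D2:**
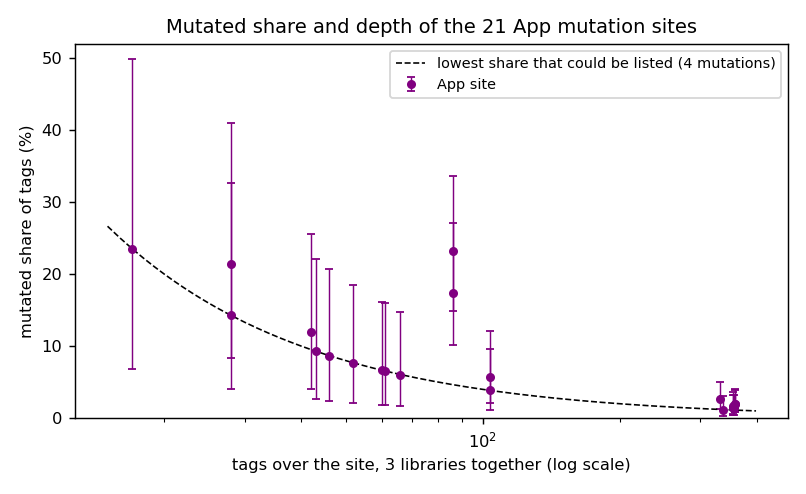
Each point is an App mutation site, with its mutated share of tags on the vertical axis, its tags in the 3 libraries together on a log axis, and its 95% exact interval; the dashed line is 4 mutations divided by depth. Of the 21 sites 10 lie on the line, and the 2 sites with 86 tags lie farthest above it for their depth.

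Set beside the other 3'UTR sites of the list, App sites were deeper and less mutated per tag. The median App site had 86 tags and a mutated share of 6.56% (n = 21 sites), against 44 tags and 12.5% for the 352 other 3'UTR sites. With 50 tags or more the medians were 3.85% for 15 App sites and 5.81% for 151 others. These medians describe sites selected by their mutations and share the bound set by depth. Among the 166 such 3'UTR sites the App base 41 nt from the summit ranked 2 by mutated share and its neighbour 7, with the top share of 25.2% in Mbp, which encodes a myelin protein. Other genes with many sites were Snap25, a vesicle fusion protein, with 18, Mbp with 10 and Chn1, a regulator of a small GTPase, with 8. The mutation counts are given for the 3 libraries together, so how far library 1, with the most mutations per tag, made them was not tested; it supplied 5.88 to 31.7% of the tags at the App sites.

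The number of reads behind each tag changed the order of the libraries at the summit. Tags here are reads collapsed by position and a short barcode carried in the tag name, of which 64 kinds occurred. The median tag over the summit stood for 64.5, 73 and 218 reads in libraries 1, 2 and 3, so library 3 had the deepest copies there although its overall median was 1. Counting reads in place of tags gave 911, 1053 and 1922 per 1000000, with library 3 highest. Restricting to tags with at least 2 reads gave 799, 995 and 701 per 1000000, and the ratio of highest to lowest library fell to 1.42, against 1.91 for all tags. Collapsing by coordinates alone left 58, 71 and 64 distinct tags, or 378, 351 and 197 per 1000000. Under every one of these counts the summit was present in all 3 libraries, while the place of library 3 turned from lowest to highest with reads.

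**Figure D3:**
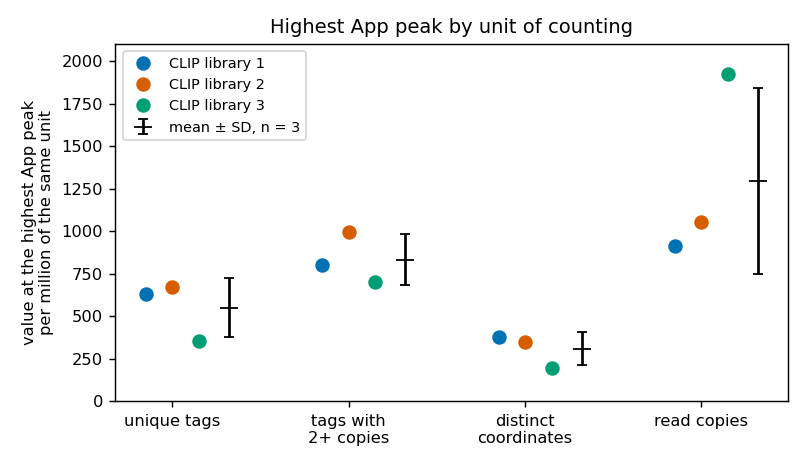
Points give the value at the highest App peak in each CLIP library, per 1000000 of the unit named on the horizontal axis, with the mean ± SD of the 3 libraries in black. Library 3 is lowest for unique tags (352) and highest for read copies (1922).

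Among genes, App held the third most tags in called peaks, counting a tag once per gene. Its values were 1012, 1017 and 636 CPM in libraries 1, 2 and 3 (888 ± 218, SD, n = 3), against a median of 12.3 over the 4800 genes with a peak. It ranked 4 in each single library. Snap25, at 1490 ± 351 CPM, lay above it in every library, and so did Mbp, at 1118 ± 256 (SD, n = 3 each). The gene with the nearest pattern, by Euclidean distance of log2(CPM + 1) over the 3 libraries, was Gpm6b, a membrane glycoprotein, at 961, 917 and 669 CPM (distance 0.18). Cplx2, a complexin of synaptic vesicles (distance 0.54), Mbp (0.65) and Rtn3, a reticulon (0.88), followed. Gpm6b was picked by this distance, so its closeness to App was set by the choice and was not tested. Both were lowest in library 3, but so were Snap25 (1797, 1566 and 1108 CPM), Mbp (1382, 1098 and 872) and Cplx2 (1024, 697 and 633). Gpm6b carried its tags in 10 peaks and Cplx2 in 6, where App had 4.

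The App family and its processing machinery were then counted from a list of 39 genes. Of these 27 (69.2%) had a called peak, against 21.8% of RefSeq protein-coding genes, but the list was picked among genes known in brain, so nothing is read from that difference. The median of the 27 was 26.0 CPM, beside 12.3 for all genes with a peak. Both relatives of App had peaks, Aplp2 with 6 and 145, 138 and 125 CPM, and Aplp1 with 4 and 94.3, 110 and 89.6 CPM in libraries 1, 2 and 3. App exceeded Aplp2 7.0, 7.34 and 5.07 times and Aplp1 10.7, 9.26 and 7.10 times. These are tags per gene, not scaled to transcript length or abundance. Neither relative had a mutation site. Their highest peaks had only 30 (Aplp1) and 22 (Aplp2) pooled tags, and a listed site needed at least 4 mutations. So nothing is read from this absence.

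Of 12 secretase genes, 6 had a peak, beside 21.8% of RefSeq protein-coding genes. As for the whole list, nothing is read from the counts by role. Bace1, the beta-secretase, had 26.0 ± 7.13 CPM and Adam9, a metalloprotease, 17.0 ± 9.42 (SD, n = 3 each). Both means lay above the 12.3 CPM median of all genes with a peak, but Adam9 had only 6.28 CPM in library 1. Adam10, the main alpha-secretase, had 8.77 ± 3.90 CPM, while Psen2 and Ncstn, gamma-secretase subunits, had 2.59 ± 2.41 and 6.78 ± 5.09 (SD, n = 3 each). These values rest on few tags, since the highest peaks of Adam10, Psen2 and Ncstn had 6, 2 and 4 tags in the pooled libraries. Adaptors that bind the cytoplasmic tail of App had peaks in 6 of 10 genes. Dab1, an adaptor of reelin signalling, had 15 peaks in its 3'UTR and introns and 166 ± 8.11 CPM. Apba1 had 50.2 ± 26.3 CPM, with values of 25.1, 47.7 and 77.6 in libraries 1, 2 and 3. Its highest peak had 24 pooled tags.

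Sorting receptors and lipoprotein genes had peaks in 6 of 7 cases, again beside 21.8% of RefSeq protein-coding genes and with nothing read from the count. Clu, a secreted chaperone that binds amyloid beta, had 465, 310 and 185 CPM and 3 mutation sites, and Sort1, a sorting receptor, and Apoe, the main lipoprotein of brain, had 66.9 ± 11.6 and 65.5 ± 23.1 CPM (SD, n = 3 each). Peptide-degrading enzymes had peaks in 2 of 3 genes, at 7.86 ± 5.83 CPM for Ide and 4.18 ± 4.89 for Ece1 (SD, n = 3 each). Their highest peaks had only 5 and 3 pooled tags. All 5 other neurodegeneration genes had peaks. Itm2b and Itm2c, membrane proteins of the BRI family, held 288 ± 37.8 and 164 ± 15.97 CPM, Prnp, the prion protein, 179 ± 44.9 with 1 mutation site, and Mapt, the tau gene, 166 ± 31.0 (SD, n = 3 each). Apart from App, 2 of the 39 listed genes, Clu and Prnp, carried mutation sites, beside 0.858% of RefSeq protein-coding genes. Nothing is read from this count either.

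**Figure D4:**
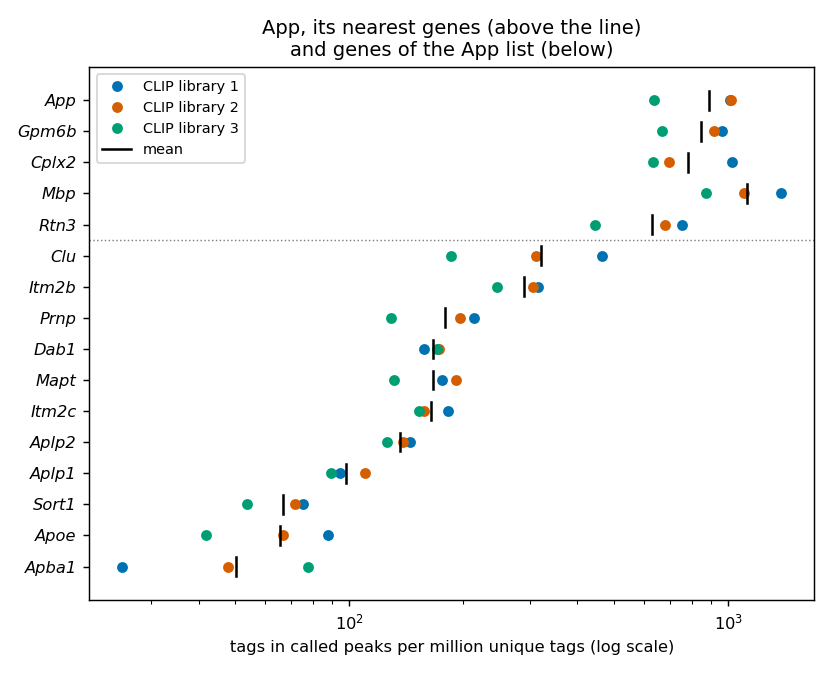
Tags in called peaks per 1000000 unique tags on a log axis, 1 point per CLIP library with the mean as a bar, for App and its 4 nearest genes above the dotted line and for the 11 listed genes with at least 50 CPM below it. App lies at 636 to 1017 CPM, above all 11 listed genes in every library.

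App also had 1 cassette exon in the authors' comparison of Mbnl2 knockout with wild-type mice, an exon of 168 nt within 85030610 to 85056568 of chromosome 16 (mm9). As background, App transcripts of neurons commonly lack an exon for a Kunitz-type protease inhibitor domain; the files name the event by length and interval only. In the authors' deposited table the inclusion form of the App exon had a separation score of -0.68 from RNA-seq (q-value listed as 0) and of -0.395 from a splicing microarray (q-value 0.046). Both scores were negative, under column headings that name the Mbnl2 knockout and MBNL2 brain. Whether a negative score means less or more inclusion in the knockout is not stated in these files, so no direction by genotype is given. The reads and intensities behind the scores are listed under lettered conditions with no genotype and were not used here.

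Most events passed the threshold that App passed. Of the 151 events with an RNA-seq score, 76.8% had a deposited q-value below 0.05, and of 463 with an array score 89.8%. By size of score in the authors' deposited table, App ranked 97 among the 151 RNA-seq events, whose median size was 0.88, and 225 among the 463 array events, whose median size was 0.39. App is not among the 209 exons of the authors' RNA-seq list, which required a change of at least 0.1, nor among their 290 joint exons, where array targets had scores of at least 0.5 in size. Limits on FDR (0.05) and junction coverage (20) are also given with the authors' lists. Which limit kept App out of the RNA-seq list was not tested. App is in their list of 39 ranked events past a score of 0.3, at rank 22 by RNA-seq and 23 by array. CLIP tags in the interval of the exon were few, 18, 17 and 28 in libraries 1, 2 and 3 (92.6 ± 17.8 CPM over 25959 nt, SD, n = 3), and no peak was called there.

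**Figure D5:**
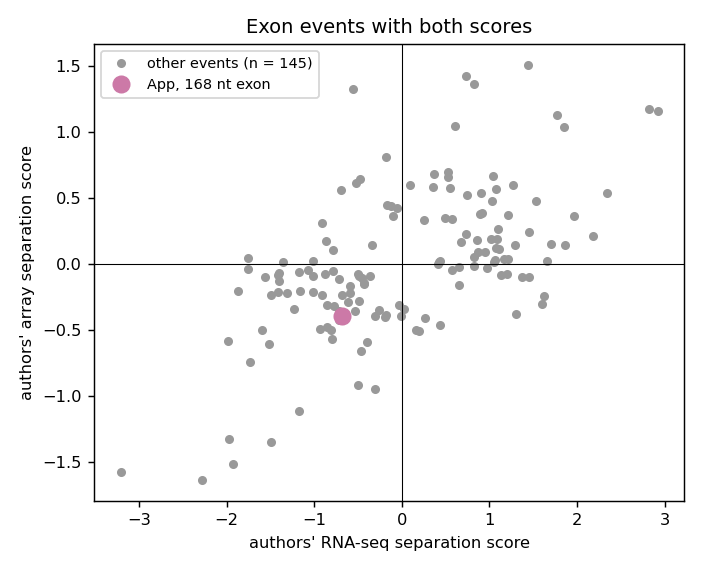
Each point is an exon event with both scores in the authors' deposited table, with the RNA-seq separation score on the horizontal and the array separation score on the vertical axis, both without units. App, the large point, has -0.68 and -0.395 and lies in the quadrant where both scores are negative.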

How the data were processed

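Counts of tags were deposited by the authors as 1 line per unique tag for each of 3 wild-type hippocampus CLIP libraries, with mm9 and Novoalign named in the submitters' processing notes and no settings stated. The score column of these files was deposited by the authors without a stated meaning and was not used. Peaks (P below 0.01 after Bonferroni correction, on pooled tags) and mutation sites (FDR of at most 0.001, at least 4 mutations) are the authors' lists, per the file headers. Separation scores and q-values (p-values adjusted by the authors) of exon events were deposited by the authors, with the array's normalization not stated; their columns of conditions A and B name no genotype and were not used. TopHat 1.3.2 is named for RNA-seq in the submitters' processing notes.

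A recount from the tag files returned the listed height of each of 10407 peaks and the listed tags of each of 557 sites. Tags were assigned to regions by their centre and to peaks by any overlap, the rule that the deposited heights follow; the plan had named centres, and the highest App peak is 1 nt wide, so centres became the alternative. Values are per 1000000 unique tags (CPM). Shares carry 95% Clopper-Pearson intervals, which hold for counting error alone because copies of a molecule are not independent; spread is over 3 libraries that may be partly technical. No statistical test was made, since CLIP has 1 group and the exon values carry no animals. Counting was tested on simulated data. Gene symbols were matched to RefSeq (GRCm38.p6) by gene ID or symbol; its coordinates were not used, and with no mm9 genome no sequence is shown.

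App and the lists were chosen with earlier results of these data known. Named genes were App, listed genes with 50 CPM or more (others, as examples of their role, were picked after their values were seen), the 5 nearest genes and the 5 with most sites; some genes these rules name are not reported here. Alternatives were assignment of tags, extent of gene and 3'UTR, library total, thresholds, left-out libraries and, added after seeing the data, what counts as a tag. Tools were matplotlib 3.10.9, scipy 1.17.1, pandas 2.3.3 and numpy 2.4.6 under Python 3.11.15.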

Additional observations from a re-analysis of the deposited data

Results flagged for a closer look

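A cluster of App-strand tags lay outside every listed App row. It held 34 tags between 84952906 and 84952999 of chromosome 16 (mm9), 1740 to 1833 nt on the 3' side of the third App peak. This was the fullest 100 nt window of the 5000 nt on the 3' side of that peak, leaving out the part nearest to it. Those 5000 nt held 106 tags. Because the window was picked by its count, the count was not set against a background. Libraries 1, 2 and 3 gave 6, 12 and 16 tags, or 37.7, 57.3 and 47.8 CPM (47.6 ± 9.80, SD, n = 3). The tags had 31 distinct coordinates, and 24 lay over a single nucleotide, yet no peak was listed there. No mm9 gene model was used, so whether the cluster lies in an App transcript was not tested.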

How the results depend on the processing

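The 9 results were recomputed under 46 settings. Assigning tags by overlap or 5' end, or extending the gene, moved App tags per 1000000 by less than the SD between libraries. App tags per 1000000 came to 14556 per 1000000 tags inside called peaks, 2939 with tags of 2 copies or more, 1879 with distinct coordinates and 3501 with read copies. The highest peak came to 3512 per 1000000 tags inside called peaks, 832 with tags of 2 copies or more, 309 with distinct coordinates and 1295 with read copies; by tag centre it was 91.2 and by the tag's 5' end 2.59, since a 1 nt peak is met by few such points. The 3'UTR share was 86.1% by any overlap, 89.8% widened by 200 nt and 81.0% with distinct coordinates. Over the RefSeq gene length together with 5000 nt on the 3' side of the span it was 75.3%. Those 5000 nt held 106 tags. Some belong to the third peak, with centres just past the span. The cluster that could not be placed in an App transcript made up 34 of them. By tag centre, 4.63% of tags lay in called peaks and App ranked 5 among genes. Ranking by a gene's highest peak or by read copies gave 2, although by pooled tags the highest App peak ranked 1 among all peaks. The median mutated share, 6.56%, was 2.71% with 5 mutations or more, 3.85% with 50 tags or more and 17.4% with 8 mutations or more, which left 3 sites. Leaving out 1 library in turn gave 2131 to 2452 tags per 1000000, 490 to 651 for the highest peak, 83.5 to 85.1% in the 3'UTR, 33.9 to 38.6% in peaks and a rank of 3 to 4. No paired analysis was possible because CLIP has 1 group and the exon values carry no library. Mutation counts per library were not analysed here, and 3 libraries limit every spread.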
